A study of Saccharomyces cerevisiae with 4 samples.

Results

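The genes described here serve growth of Saccharomyces cerevisiae on ethanol and acetate: the gluconeogenesis genes PCK1 and FBP1, the glyoxylate cycle genes ICL1, MLS1 and MDH2, the genes ACS1 and SFC1 that feed and connect the cycle, and the activator genes ADR1, CAT8 and SIP4. They were chosen by name, as genes repressed by glucose together with their activators, and each was represented by a single probe set annotated to that gene alone, giving 10 of the 5656 genes tested. The choice was made with earlier results of these data known, so the 10 were not tested as a set. Biotin-labelled RNA, read on Affymetrix expression arrays, came from wild type SEY6210, a laboratory strain (2 arrays), and from a pmt1 pmt2 mutant made in SEY6210 (2 arrays), 1 biological sample an array according to the design text. The products of PMT1 and PMT2 add mannose to proteins that enter the secretory pathway. Overnight cultures of both strains were diluted to an OD of 0.1, brought to 0.45 and then kept growing for 3 h, and the extraction notes call the cells exponentially growing. The carbon source, the density at harvest, the alteration made in PMT1 and PMT2 and the number of clones behind the mutant are not given in the sources used here.

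When glucose is present, yeast ferments it and keeps these genes low, in part through the repressor Mig1. When glucose runs out, the Snf1 kinase relieves that repression and activates Cat8, Sip4 and Adr1, which bind the promoters of the enzyme genes. The glyoxylate cycle bypasses the decarboxylating steps of the TCA cycle, so that acetyl-CoA can yield a net gain of C4 acids, and gluconeogenesis then turns oxaloacetate into hexose phosphate. Fbp1, Icl1, Mdh2 and Pck1 are also known as proteins that the GID ubiquitin ligase marks for degradation when glucose returns, a step that transcript levels do not show.

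The labels were checked on the mutated genes. PMT2 measured 2646 and 2771 in wild type against 11.9 and 15.5 in pmt1 pmt2, and PMT1 measured 1178 and 809 against 111 and 104. Both were lower on the pmt1 pmt2 arrays, in the direction of their labels (limma adjusted p = 0.00309 and 0.0382). The median signal was 54.4 to 66.1 over the arrays, and 81.6% to 86.0% of genes lay above background, which was set at the brightest (26.2) of 19 control probe sets for transcripts absent from yeast. The arrays numbered 1 and 2 differed in a control for RNA or labelling quality: dividing the actin probe set at the tail by that at the start of the transcript gave 2.99 and 3.15 on the arrays numbered 1 and 1.38 and 1.32 on those numbered 2. The labels name no batch, so changes are also given within each array number. Signals are in the deposited linear units, fold changes are ratios of geometric means, and errors on log2 changes are standard errors of the limma fit with 95% intervals from the same fit. The signals come from whole cultures, so more expressing cells and more RNA per cell cannot be told apart.

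Most of the 10 genes measured higher in pmt1 pmt2, and MDH2 measured lower, but none passed the test across all genes. PCK1, ICL1, MLS1, ADR1, CAT8 and SIP4 were higher on both pmt1 pmt2 arrays than on either wild type array, MDH2 was lower on both, and FBP1, ACS1 and SFC1 overlapped between the groups. At a limma adjusted p under 0.05, 0 of the 10 were called, where 0.389% of all genes were. At a limma unadjusted p under 0.05, 6 of the 10 were higher and 1 was lower, against 5.37% of all genes higher and 1.8% lower. Non-overlapping groups with pmt1 pmt2 higher were found for 6 of the 10 and for 18.5% of all genes, and with pmt1 pmt2 lower for 1 of the 10 and for 14.7%. The median log2 change of the 10 was 1.08 (0.83 and 1.37 within the arrays numbered 1 and 2), beside 0.027 for all genes (−0.15 and 0.21). Within both array numbers 8 of the 10 were higher (31.9% of all genes) and 1 was lower (31% of all genes). In a fit that treated array numbers as a replicate block, PCK1, MLS1 and ADR1 passed and the other 7 did not, where 3.02% of all genes passed.

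Low signal limits what can be said of FBP1, SFC1 and CAT8, and of MLS1 and SIP4, whose wild type arrays were all under background. Both arrays of at least 1 group lay above background for PCK1, ICL1, MLS1, MDH2, ACS1, ADR1 and SIP4, a state shared by 82.4% of all genes. FBP1 and SFC1 exceeded background on 1 pmt1 pmt2 array each and CAT8 on no array. With every signal under background raised to it, the log2 changes of MLS1 and SIP4 were 0.25 and 0.32, and the median log2 change of the 10 was 0.28, beside 0 for all genes. At a limma unadjusted p under 0.05, 1 of the 10 was then higher and 0 were lower. Over all genes that fit called 510 of 5656 in either direction. With log2 signals raised to 4 instead, 4 of the 10 were higher and 0 lower, with 532 of 5656 genes called.

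**Figure D1:**
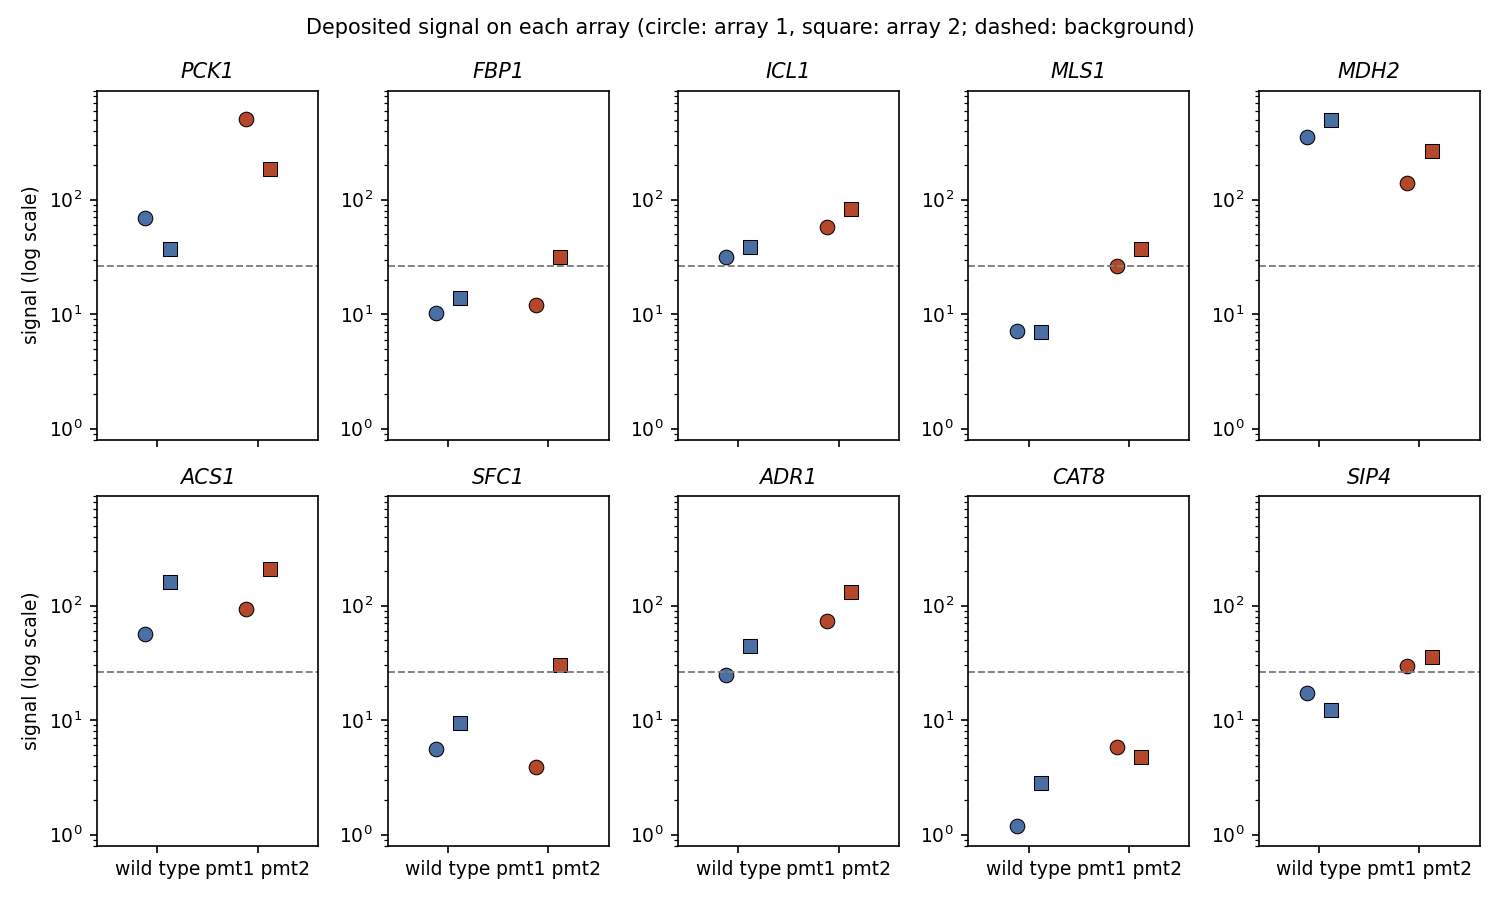
Deposited signal (log scale) of each of the 10 genes on the 2 wild type arrays (blue) and the 2 pmt1 pmt2 arrays (orange), with circles for arrays numbered 1, squares for arrays numbered 2 and a dashed line at the background of 26.2. PCK1, ICL1, MLS1, ADR1, CAT8 and SIP4 have both orange points above both blue points, MDH2 has both below, and CAT8 lies under the dashed line on every array.

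PCK1 (YKR097W) encodes phosphoenolpyruvate carboxykinase, which turns oxaloacetate into phosphoenolpyruvate and commits carbon to gluconeogenesis. Its signal was 69.4 and 36.8 in wild type against 508 and 185 in the mutant. All 4 arrays were above background and the groups did not overlap, although the 2 arrays of a group stood far apart, with the array numbered 1 the higher in both strains. The groups differed 6.06-fold (log2 change 2.60 ± 0.60 (SE), interval 1.14 to 4.06), the largest fold among the 5 of the 10 genes with a measured fold and no bound (PCK1, ICL1, MDH2, ACS1 and ADR1). It did not pass in limma (adjusted p = 0.251) and passed with the replicate block (limma adjusted p = 0.00542). The log2 change was 2.87 within the arrays numbered 1 and 2.33 within those numbered 2. With 1 array left out it was 1.87 to 3.33. Of these 4 fits, that without wild type array 1 passed (log2 change 3.06, limma adjusted p = 0.0119), with its spread taken from the mutant arrays alone, and the other 3 did not (limma adjusted p = 0.213 to 0.354).

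FBP1 (YLR377C) encodes fructose bisphosphatase, the other enzyme of gluconeogenesis that bypasses an irreversible step of glycolysis. It measured 10.3 and 13.9 in wild type against 12.1 and 31.9 in the mutant. Only pmt1 pmt2 array 2 exceeded background, and array 1 of the mutant lay between the wild type arrays, so no fold is given. The interval of the log2 change ran from −0.60 to 2.03 (limma adjusted p = 0.973). The difference between the changes of PCK1 and FBP1 was not tested.

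ICL1 (YER065C) encodes isocitrate lyase, which splits isocitrate into succinate and glyoxylate. It measured 31.6 and 38.5 in wild type against 58.0 and 83.0 in the mutant. Every array was above background, wild type by little, and both mutant arrays exceeded both wild type arrays. The difference was 1.99-fold (log2 change 0.99 ± 0.38 (SE), interval 0.073 to 1.91) and did not pass (limma adjusted p = 0.652, and 0.100 with the block). The log2 changes of 0.88 and 1.11 within the array numbers lay close to each other.

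MLS1 (YNL117W) encodes malate synthase, which joins glyoxylate to acetyl-CoA. It measured 7.2 and 7.0 in wild type, under background, against 26.4 and 36.9 in the mutant, above it, the lower by a small margin. The mutant was therefore at least 1.19-fold higher. By the deposited values the log2 change was 2.14 ± 0.36 (SE), short of the threshold in limma (adjusted p = 0.132) and past it with the block (limma adjusted p = 0.0115), but with wild type under background this size is not a measured fold. Its log2 change was 1.87 and 2.40 within the array numbers.

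MDH2 (YOL126C) encodes the cytosolic malate dehydrogenase, which makes oxaloacetate for Pck1. It ran opposite to the other glyoxylate cycle genes, at 353 and 497 in wild type against 140 and 267 in the mutant. All arrays were far above background and the groups did not overlap. The wild type was 2.17-fold higher (log2 change −1.12 ± 0.45 (SE), interval −2.22 to −0.013), which did not pass (limma adjusted p = 0.691, and 0.0846 with the block). By array number its log2 change was −1.34 and −0.90. The arrays numbered 2 were the higher in both strains.

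ACS1 (YAL054C) encodes the acetyl-CoA synthetase used on acetate and ethanol. It measured 56.6 and 160 in wild type against 93.0 and 209 in the mutant. The array number set its signal further apart than the strain did: array 2 exceeded array 1 by 1.50 in wild type and 1.17 in pmt1 pmt2 on the log2 scale, and the log2 change between strains was 0.55 ± 0.64 (SE) (interval −1.01 to 2.11, limma adjusted p = 0.994). Within each array number the mutant was higher, by a log2 change of 0.72 and 0.38. Leaving out wild type array 1 turned the log2 change to −0.20 and leaving out pmt1 pmt2 array 2 turned it to −0.034.

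SFC1 (YJR095W) encodes the mitochondrial carrier that exchanges cytosolic succinate for fumarate and so links the glyoxylate cycle to the TCA cycle. It measured 5.60 and 9.50 in wild type against 3.90 and 30.4 in the mutant. The mutant arrays were the lowest and the highest of the 4, and the highest alone was above background. The log2 change was −0.52 within the arrays numbered 1 and 1.68 within those numbered 2, so no direction is given for this gene (limma adjusted p = 0.994). Without pmt1 pmt2 array 2 the log2 change was −0.90.

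**Figure D2:**
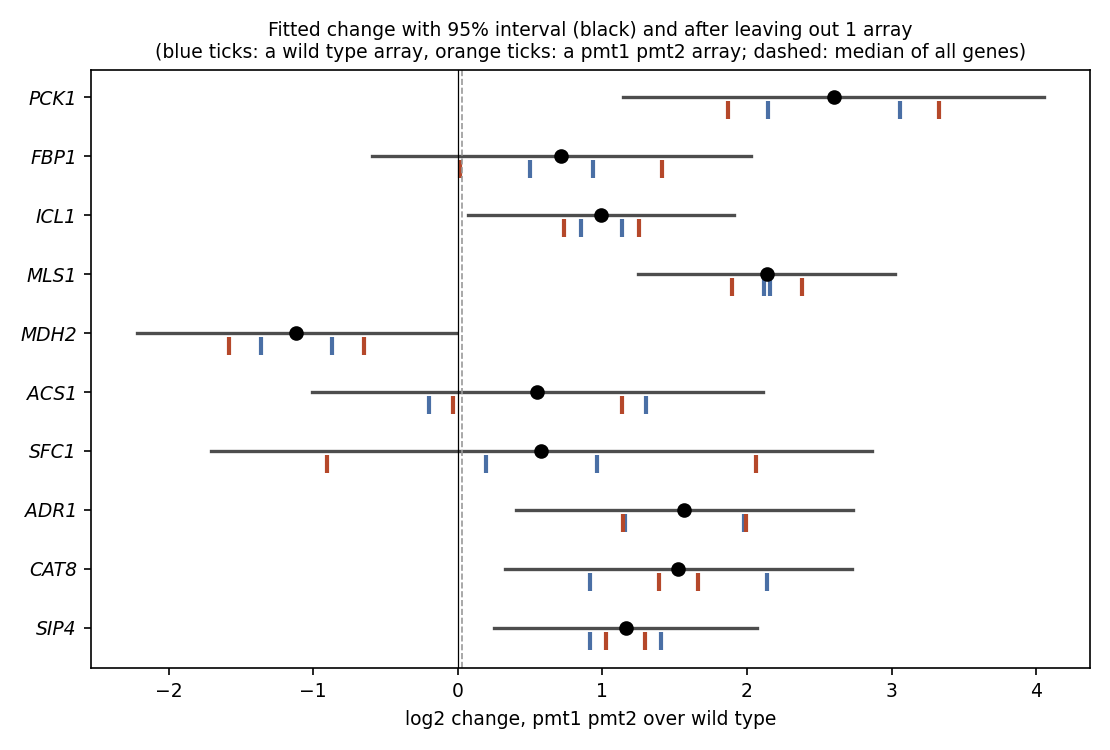
Fitted log2 change of each gene between pmt1 pmt2 and wild type (black point) with its 95% interval (black line), and the change after leaving out 1 array (ticks, blue for a wild type array and orange for a pmt1 pmt2 array); the dashed line is the median of all genes at 0.027. The intervals of FBP1, ACS1 and SFC1 include 0, that of MDH2 lies below 0, and the other 6 lie above 0 before adjustment over all genes.

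Of the 3 activator genes, ADR1 and SIP4 measured higher in the mutant and CAT8 was not above background. ADR1 (YDR216W) encodes the zinc finger activator of ADH2, ACS1 and genes of peroxisomal fatty acid use. Its signal was 24.9 and 44.0 in wild type against 72.9 and 132 in the mutant. One wild type array lay just under background, both mutant arrays lay above it, and the groups did not overlap. The difference was 2.96-fold (log2 change 1.57 ± 0.48 (SE), interval 0.40 to 2.73), which did not pass in limma (adjusted p = 0.467) and passed with the block (limma adjusted p = 0.0270). The array numbers gave nearly the same log2 change, 1.55 and 1.58, while array 2 exceeded array 1 by 0.82 and 0.85 (log2) in wild type and pmt1 pmt2.

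SIP4 (YJL089W) encodes a zinc cluster activator that binds the carbon source responsive element of gluconeogenic promoters and interacts with the Snf1 kinase. It measured 17.3 and 12.3 in wild type, under background, and 29.7 and 35.8 in pmt1 pmt2, a little above it. The mutant was at least 1.24-fold higher (log2 change by the deposited values 1.16 ± 0.37 (SE), 0.78 and 1.54 within the array numbers, limma adjusted p = 0.516, and 0.0921 with the block). CAT8 (YMR280C) encodes the zinc cluster activator that acts through the same element and on which SIP4 transcription depends. Its signal was 1.20 and 2.80 in wild type against 5.80 and 4.80 in the mutant. These values do not overlap, yet all 4 lie far under background, so no level or fold is given for CAT8 and its place among the 6 higher genes rests on signals that the control probe sets also reach.

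**Figure D3:**
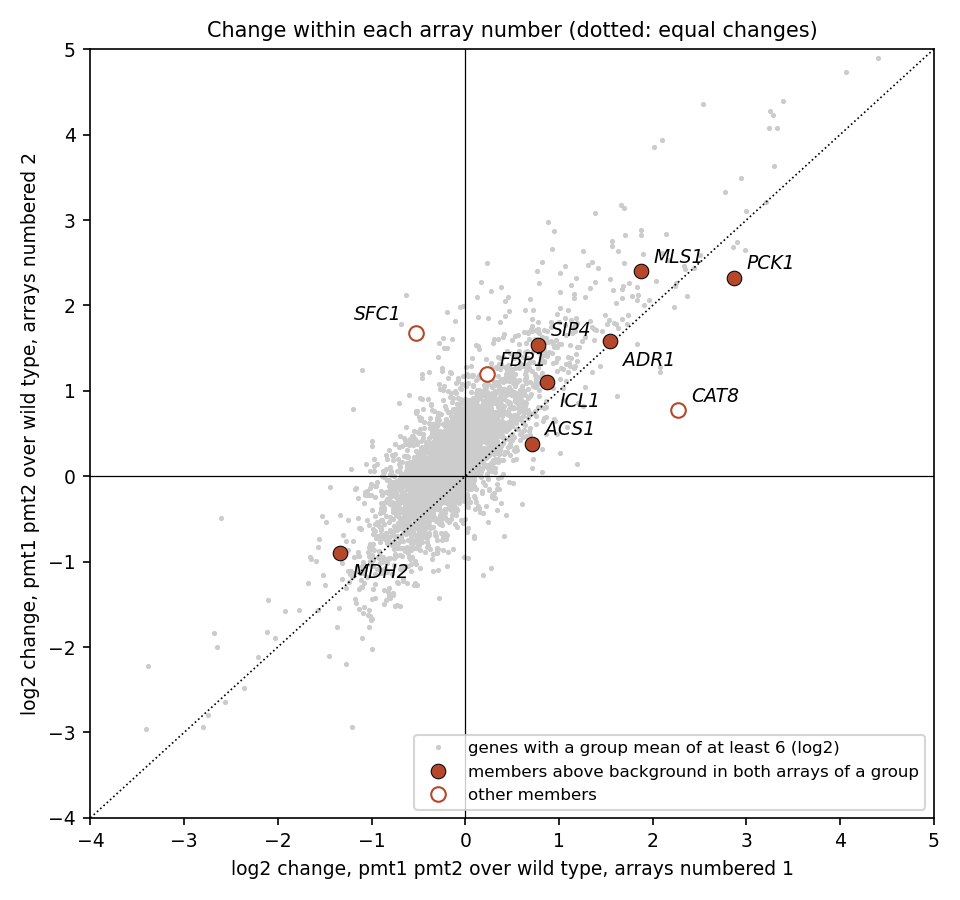
Log2 change between pmt1 pmt2 and wild type within the arrays numbered 1 (horizontal) and numbered 2 (vertical) for the 10 genes (orange) over genes whose log2 mean reached 6 in a group (grey, 4 of 3763 outside the axes); open circles are the 3 genes not above background on both arrays of either group. ADR1 and ICL1 sit close to the dotted line of equal changes, MDH2 is the 1 gene of the 10 in the lower left, and SFC1 is higher in 1 pair and lower in the other.

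Related enzymes of other compartments or pathways were set beside MDH2, ICL1, MLS1 and ACS1. MDH1, the mitochondrial malate dehydrogenase, measured 2552 and 990 in wild type against 2063 and 1458 in the mutant, and MDH3, the peroxisomal enzyme, measured 354 and 346 against 291 and 381. Both overlapped between groups (log2 changes 0.13 and −0.072), where MDH2 was lower on both mutant arrays. ICL2, the mitochondrial methylisocitrate lyase, measured 69.6 and 60.9 in wild type against 74.3 and 82.6 in the mutant (log2 change 0.27, where ICL1 had 0.99). Like ICL1, ICL2 was higher on both mutant arrays than on either wild type array, as were 18.5% of all genes. DAL7, the malate synthase of allantoin use, was not above background on any array. ACS2, the acetyl-CoA synthetase used on glucose, measured 961 and 1692 in wild type against 679 and 1386 in the mutant, a log2 change of −0.39 with −0.50 and −0.29 within the array numbers. None of these 5 genes passed (0 at a limma unadjusted p under 0.05 and 0 with the block). The differences between the changes of related genes were not tested.

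Of 80 genes around these reactions, grouped by role into 7 lists, 79 were measured. A single one of the 79 passed, where 0.389% of all genes did. This was AGX1, which encodes alanine:glyoxylate aminotransferase and so draws on the glyoxylate that Icl1 makes. It measured 26.9 and 23.3 in wild type against 207 and 262 in the mutant (log2 change 3.22, limma adjusted p = 0.0364), with wild type array 2 under background and array 1 barely above it. No gene of the lists passed after quantile normalization, with low signals raised to a floor, over every probe set, or without either pmt1 pmt2 array. In the list of its neighbours in the glyoxylate and TCA cycles, the other 13 of 14 did not pass and the median log2 change was 0.30. Among them CIT2, the peroxisomal citrate synthase, measured 458 and 324 against 963 and 703 (log2 change 1.10, 1.07 and 1.12 within the array numbers). PYC1, a pyruvate carboxylase that makes oxaloacetate by another route than Mdh2, measured 422 and 375 against 723 and 837 (log2 change 0.97). Neither CIT2 nor PYC1 passed (limma adjusted p = 0.593 and 0.595).

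Genes for the entry and transport of ethanol, acetate and lactate had a median log2 change of 0.58, with 13 of 15 above 0 (52.5% of all genes) and 0 past the test. At a limma unadjusted p under 0.05, 5 of the 15 were higher, against 5.37% of all genes. CYB2, for the lactate dehydrogenase of the mitochondrial intermembrane space, measured 19.6 and 12.1 in wild type, under background, and 42.5 and 46.1 in pmt1 pmt2. It was at least 1.69-fold higher (limma adjusted p = 0.333, and 0.0495 with the block). ATO2, of the acetate transporter family of Ady2, measured 26.2 and 13.4 against 49.7 and 84.6, or 2.47-fold higher at the least (limma adjusted p = 0.376). The aldehyde dehydrogenase gene ALD2 measured 18.9 and 17.2 against 34.1 and 77.7, or 1.96-fold higher at the least (limma adjusted p = 0.502). All 5 genes of the carnitine shuttle, which carries acetyl units into mitochondria, were higher within each array number (31.9% of all genes). Their median was 0.77 and 0 passed the test (1 higher at a limma unadjusted p under 0.05, against 5.37% of all genes). Both arrays of a group lay above background for 3 of the 5. CRC1 and AGP2 exceeded it on pmt1 pmt2 array 2 alone. Within the arrays numbered 1 the log2 changes of CRC1 and AGP2 were 0.059 and 0.13. In that list the carnitine acetyltransferase genes YAT2 and YAT1 measured 30.0 and 21.0 against 49.2 and 47.4, and 51.4 and 77.2 against 68.8 and 168. AGP2, needed for carnitine uptake, measured 21.2 and 15.0 against 23.2 and 45.0.

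The list named glycolytic counterparts holds HXK1, HXK2, GLK1, PFK1, PFK2, CDC19, PYK2, PFK26, PFK27 and FBP26. Not all of these encode an enzyme that opposes Pck1 or Fbp1. This list had a median log2 change of 0.049, with 5 of 10 above 0 (52.5% of all genes). In it 0 passed the test, and 1 was higher at a limma unadjusted p under 0.05, against 5.37% of all genes. That gene was FBP26, for a phosphatase that lowers the fructose bisphosphate activator of glycolysis, and so not itself a glycolytic enzyme. It measured 35.3 and 20.6 in wild type against 64.9 and 163 in the mutant (log2 change 1.93, 0.88 and 2.98 within the array numbers, limma adjusted p = 0.424). The glucokinase gene GLK1 measured 1326 and 1384 against 1599 and 3465, and the hexokinase gene HXK1 485 and 626 against 285 and 558. Neither passed (limma adjusted p = 0.897 and 0.994).

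Genes of glucose repression and Snf1 signalling had a median log2 change of 0.20 over 15 genes, with 0 past the test. Against 5.37% of all genes, 1 of the 15 was higher at a limma unadjusted p under 0.05. That gene was TOS3, for a kinase that activates Snf1, at 37.1 and 40.1 in wild type against 94.5 and 134 in the mutant (log2 change 1.55, 1.35 and 1.74 within the array numbers, limma adjusted p = 0.266, and 0.0325 with the block). The genes for the Snf1 beta subunits Gal83 and Sip2 had log2 changes of 0.47 and 0.55 (limma adjusted p = 0.973 and 0.982). SIP2 measured 16.8 and 28.9 in wild type against 25.0 and 41.7 in the mutant, with array 1 of each strain under background. The other regulators of growth without glucose had a median of 0.13 over 10 genes, with 0 past the test (0 at a limma unadjusted p under 0.05). Their 3 smallest p-values belonged to GSM1, HAP5 and RDS2, with log2 changes of 0.85, 0.26 and −0.32. Genes of the GID ligase and Fbp1 degradation had a median of 0.51 over 10 genes, which was −0.11 within the arrays numbered 1 and 0.87 within those numbered 2. Of these, 0 passed the test (1 higher at a limma unadjusted p under 0.05, against 5.37% of all genes). VID24, for the receptor that recognises Fbp1, measured 140 and 153 in wild type against 224 and 368 in the mutant (log2 change 0.97, limma adjusted p = 0.692). VID30 and RMD5, for subunits of the ligase, had log2 changes of 0.57 and 0.62 by the deposited values (limma adjusted p = 0.909 and 0.915). VID30 measured 17.8 and 21.6 in wild type, under background, so the mutant was at least 1.11-fold higher.

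**Figure D4:**
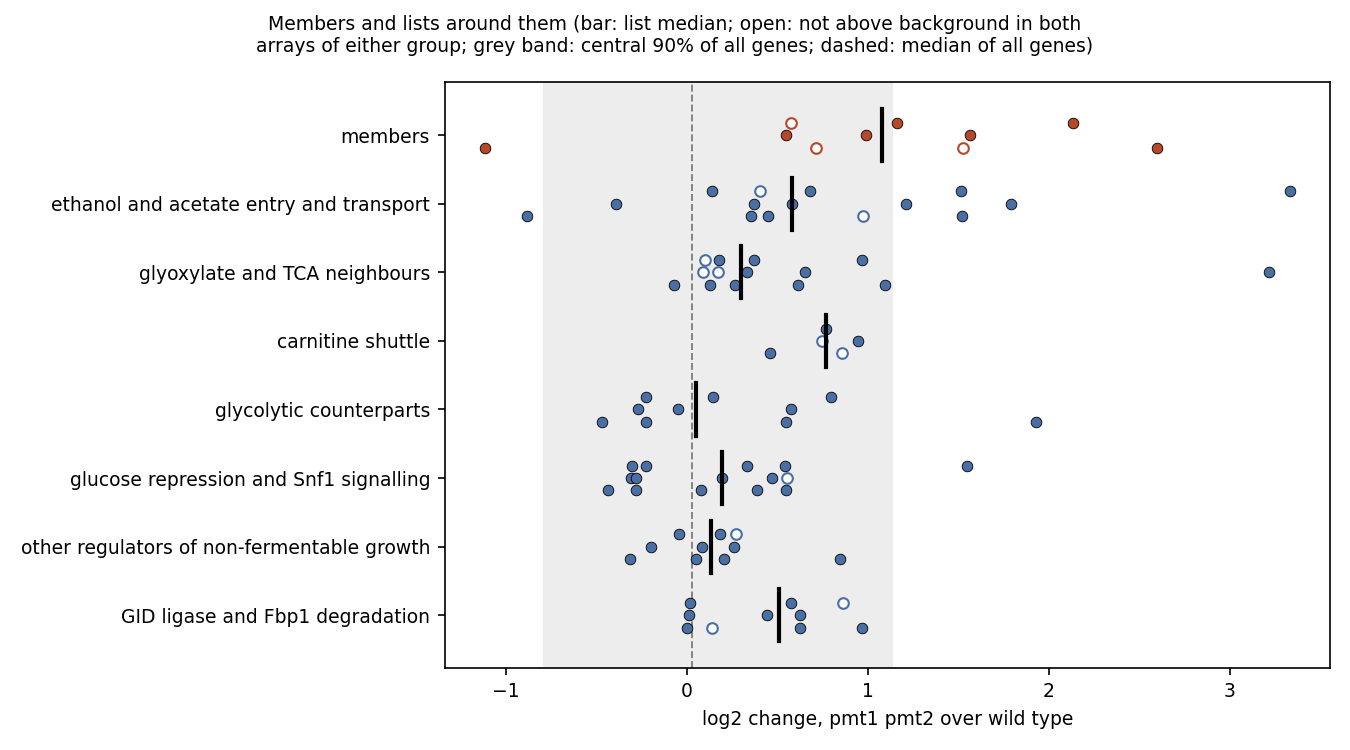
Log2 change between pmt1 pmt2 and wild type for the 10 genes (orange) and the 7 lists around them (blue), with a black bar at each list's median, open circles for genes not above background on both arrays of either group, a grey band over the central 90% of all genes (−0.79 to 1.13) and a dashed line at their median of 0.027. The median of the 10 genes is 1.08, those of the carnitine shuttle and of ethanol and acetate entry and transport are 0.77 and 0.58, and the glycolytic counterparts lie at 0.049.

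The 7 genes whose mean reached background in at least 1 group (PCK1, ICL1, MLS1, MDH2, ACS1, ADR1 and SIP4) had a mean profile, centred per gene on the log2 scale, of −0.68 and −0.45 in wild type against 0.37 and 0.76 in the mutant. MLS1 and SIP4 entered it through the mutant arrays alone, with wild type signals under background that are not measured levels. MDH2 ran opposite to this mean. Of 3758 other genes with a group mean of at least 6, the closest to the mean profile by Euclidean distance over the 4 arrays were HIS5 (0.049), LCL2 (0.12) and TOH1 (0.15). HIS5, for histidinol-phosphate aminotransferase, measured 44.5 and 54.2 in wild type against 95.1 and 127 in the mutant. None of these 3 passed (limma adjusted p = 0.499, 0.565 and 0.632).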

How the data were processed

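The authors' deposited values are probe set signals (intensity) in linear units with zeros and values under 1. GCRMA is named without version or settings, per the submitters' processing notes. Such values are not usual for GCRMA, so the summary method is uncertain, with no statement on how arrays were scaled. Of 9335 probe sets, 6504 named 1 gene, 328 several and 2503 none, by GEO's platform annotation. Symbols were updated through Entrez IDs to the R64 assembly, which served for names only (5656 of 5656 genes matched). For 315 genes with several probe sets the one with the highest mean was used. Zeros were set to 0.1, log2 taken, and no normalization or filter applied. A group with no array above background has only a bound, computed with its signals raised to 26.2. The strains were tested against each other in R 4.3.3 by limma 3.58.1 (lmFit, eBayes, two-sided, Benjamini-Hochberg over 5656 genes, threshold 0.05). The fits with and without a replicate block were also run on simulated data with an array-number effect equal in both strains. Data built that way cannot show whether the block suits these arrays. The number of arrays limits the precision. Equal array numbers are not stated to share a culture or day. Across 3763 genes with a group mean of at least 6 the array 2 minus array 1 log2 differences of the strains correlated at r = 0.81 (genes are not independent replicates). Alternatives were 2 scalings, filters and floors on low signal, 2 variance models, other probe set rules, a replicate block, and fits that drop 1 array. The members and lists were chosen with earlier results of these data known. The genes named are the 10, their paralogues, PMT1 and PMT2, every list gene past the threshold, the 3 of each list with the smallest p and the 3 nearest profiles. Others were chosen after their values were seen.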

Additional observations from a re-analysis of the deposited data

How the results depend on the processing

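Over 14 alternatives planned and 2 added after seeing the data, PCK1, FBP1, ICL1, MLS1, ADR1 and SIP4 had log2 changes above 0 and MDH2 below 0 wherever they were tested (filters left 6 or 3 of the 10 genes). The variance models, probe set rules, filters and the replicate block itself leave the log2 changes of the 10 as they were. Only the scalings, the floors and leaving out 1 array could move them. ACS1 reversed without wild type array 1 (−0.20) or pmt1 pmt2 array 2 (−0.034) and SFC1 without pmt1 pmt2 array 2 (−0.90), and with 1 array left out they reached 1.30 and 2.06 at most. CAT8 was at 0 with either floor. Genes of the 10 past limma's test numbered 3 with the replicate block and 0 to 1 with 1 array left out, and 0 in the other alternatives. The count over all genes, 22 at first, was 171 with the block, 2 after quantile normalization (both lower), 38 with a minimum mean log2 signal of 6, and 1 with log2 signals raised to 4 or to background. It was 0 over every probe set (510 at limma's unadjusted p under 0.05) and 0 with the block and background floor together (918), a fit in which genes at the floor have no spread and PMT2 itself did not pass. With 1 array left out it was 0 to 62. Over the 79 genes of the lists the count of 1 became 3 with the block, 0 after quantile normalization, with the floors or over every probe set, and 0 to 2 with 1 array left out. The median log2 change of the 10 genes was 0.55 over the 3 left by the minimum of 6, 0.76 with log2 signals raised to 4, 0.28 with signals raised to background, with or without the block, and 0.88 to 1.40 with 1 array left out. For all genes it was −0.14 without pmt1 pmt2 array 2 and 0.24 without pmt1 pmt2 array 1. Of the mutated genes, PMT2 also did not pass over every probe set (limma adjusted p = 0.120), nor did PMT1 (0.307). PMT1 did not pass after quantile normalization (limma adjusted p = 0.0669) or centring of array medians (0.0508). It did not pass with log2 signals raised to 4 (limma adjusted p = 0.285) or with signals raised to background (0.241).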

Other observations

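HAP4 and JEN1, members of the lists above that were named after their values were seen, stood out by array. HAP4, for the glucose-repressed activator subunit of the Hap complex for respiratory genes, measured 864 and 159 in wild type against 608 and 171 in the mutant. It was higher on the arrays numbered 1 in both strains, as PCK1 was, while ACS1, ADR1 and MDH2 were higher on those numbered 2. JEN1, for the lactate and pyruvate transporter, measured 33.1 and 1.7 in wild type against 68.4 and 83.3 in the mutant. Its log2 change of 3.33 was 1.05 within the arrays numbered 1 and 5.61 within those numbered 2, where the wild type signal lay far under background.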
